A study of Mus musculus with 8 samples.

Results

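The genes described here mark microglia and other macrophages of the brain. They are 38 genes, chosen by name with earlier results of these data known, of 22237 genes named on the array. All 38 were on it, with 50 of its 39429 probes. The study measured gene expression in mouse brain on 8 single-colour Agilent arrays. Brains were taken from mice that had been fasted for 17 h (4 samples) or fed over the same time (4 samples), and both groups were labelled with Cy3 from 0.1 ug of total RNA. Strain, sex, age, brain region and the number of animals behind a sample are not given in the sources used here. A p-value here therefore rests on the spread among samples of a group, part of which may be technical. No sample carries an allele or agent in the labels, and diet is the difference between the groups that they name.

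Microglia are the resident macrophages of the brain parenchyma. In the undisturbed brain they carry receptors for nucleotides and for the chemokine fractalkine. They also carry the receptor for the growth factors CSF1 and IL-34, on which their survival depends. Several of these surface genes are called homeostatic because they fall when microglia become reactive. The class of that name below also holds other surface genes, such as Trem2 and Cd33. It was not tested as a measure of reactive microglia. Microglia also make the subunits of complement C1q, the recognition molecule of the classical complement pathway, and they digest what they take up with lysosomal proteases. Perivascular macrophages are a second population, which lies along vessels and in the meninges and carries scavenger and lectin receptors.

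Values below are on the scaled log2 scale, the log2 processed signal of a probe minus the 75th percentile of its array, so that 0 is the 75th percentile of all spots on that array. A difference is the fasted mean minus the fed mean on this scale, a fold is 2 to the power of its size, and n = 4 arrays per group throughout. A gene is represented by its brightest probe among those above background. Called means an adjusted p under 0.05 in limma, with Benjamini-Hochberg adjustment over all probes tested. Because bulk tissue was measured, fewer cells of a type and less RNA per cell cannot be told apart in any of these values.

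The members, which were used as markers of these cells, were nearly all detected. Of the 38 members, 37 were measured, and 35 were well above background on all 8 arrays. Lyz2, the lysozyme of myeloid cells, was well above background on 0 of 8 arrays. Cd53, a leukocyte tetraspanin, was above background on 2 fasted and 3 fed arrays. Itgad, an integrin alpha chain, was above it on 4 fasted and 0 fed arrays. The 75th percentile of the signal was 1651 to 1944 over the arrays, between 62.3% and 69% of probes were well above background, and no spot was saturated. The arrays lay on 2 slides, each with 2 fasted and 2 fed arrays. On each slide the fasted samples took positions 1 and 3 and the fed samples 2 and 4, and diet and position cannot be told apart.

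Of the 37 measured members 12 fell in fasted brain and 24 did not pass. The remaining member, Itgad, was called higher, and it had entered the test only through the fasted arrays. The 12 are 32.4% of the measured members, and 8.96% of the 15995 genes tested fell; 9.46% rose, and 18.4% were called in either direction. The members were chosen with earlier results of these data known, so their share is not independent of the data. No test of the members as a group was made. The median difference was -0.11 over the members and -0.01 over all genes tested, and 30 members lay below 0. Among the genes of the homeostatic surface 7 of 13 fell (53.8%). Of the 2 cytoskeletal and secreted genes 1 fell (50%), and of the 5 integrin and pan-leukocyte genes 2 fell (40%). This order depends on the processing. With median scaling 4 of the 13 homeostatic genes fell, a smaller share than 1 of the 2 cytoskeletal and secreted genes, which still fell. Among the complement members 1 of 5 fell, and among the 3 measured lysosomal members none passed in limma (1 had an unadjusted p under 0.05). No test of the difference between these classes was made.

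**Figure D1:**
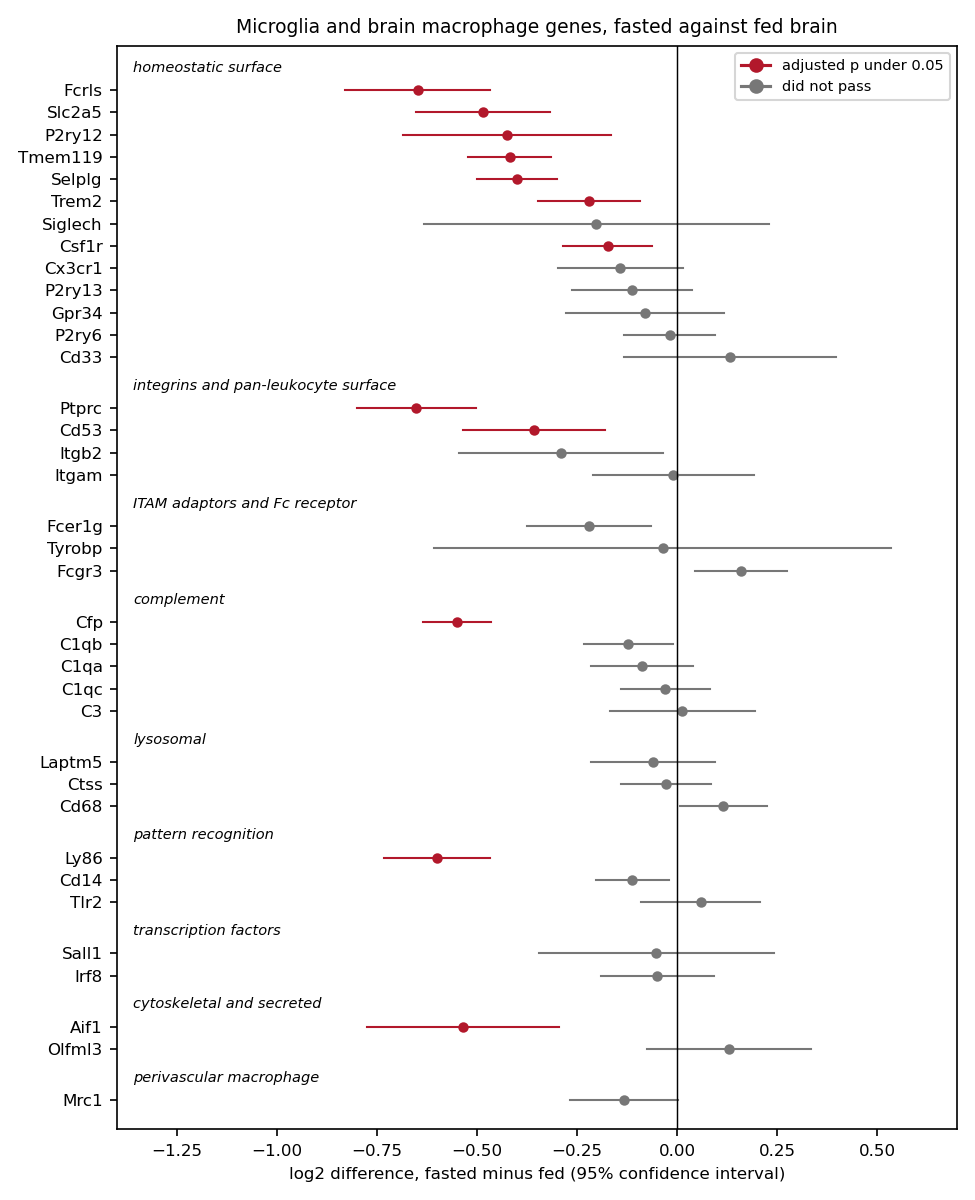
Log2 difference of each measured member, fasted minus fed, grouped by class; points are limma estimates on 4 arrays per group and bars are 95% confidence intervals. The genes that passed, in red, all lie to the left of 0, and 7 of the 12 are homeostatic surface genes; Itgad, which has only a bound, is not drawn.

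Within the homeostatic surface class the falls were between 1.13-fold and 1.57-fold. Fcrls, an Fc receptor-like protein that marks mouse microglia, read -1.70, -1.71, -1.42 and -1.44 on the fasted arrays and -0.90, -1.01, -0.89 and -0.87 on the fed arrays. Its groups were separate by a wide gap, and the fasted arrays of the first slide were the lowest. In fasted brain Fcrls was down 1.57-fold (limma, 95% confidence interval 1.38 to 1.78, adjusted p = 0.00269). Its probe lies at chr3:87056422-87056481 on the minus strand, in coordinates of mm9 as for all probes below.

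Slc2a5 encodes the fructose transporter GLUT5, which in brain is found on microglia. It read -1.29, -1.42, -1.06 and -1.18 on the fasted arrays and -0.75, -0.75, -0.74 and -0.77 on the fed arrays. The fed arrays were almost level and every fasted array lay below them, with a difference of -0.49 and a fold of 1.40 (1.25 to 1.57; limma, adjusted p = 0.0054).

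Tmem119, a transmembrane protein used as a microglial marker, read -0.21, -0.26, -0.11 and -0.24 on the fasted arrays and 0.19, 0.24, 0.27 and 0.15 on the fed arrays. All fasted arrays lay below the array's 75th percentile and all fed arrays above it. The fold was 1.34 (1.24 to 1.44; limma, adjusted p = 0.00185), and the difference was alike on both slides, -0.45 on the first and -0.38 on the second. The probe lies at chr5:114243962-114244021 on the minus strand of mm9.

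Selplg, the ligand of P-selectin, lies in the same region of chromosome 5, with its brightest probe at chr5:114267807-114267834 on the minus strand of mm9. It read -0.14, -0.20, -0.16 and -0.15 on the fasted arrays and 0.24, 0.24, 0.33 and 0.14 on the fed arrays. The fasted arrays were tightly grouped below all fed arrays, at a fold of 1.32 (1.23 to 1.41; limma, adjusted p = 0.0019). A second Selplg probe also fell, by 0.27 on the log2 scale (limma, adjusted p = 0.0178).

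P2ry12 encodes the ADP receptor by which microglial processes find sites of injury. Its signal was -1.27, -1.18, -1.06 and -0.86 on the fasted arrays and -0.82, -0.81, -0.58 and -0.46 on the fed arrays. The groups nearly touched, since fasted replicate 4 lay just below fed replicate 1, and the second slide was the higher in both groups. The difference was -0.43, a fold of 1.34 (1.12 to 1.61; limma, adjusted p = 0.0377). Fits that held the slide or the replicate number as a block gave an adjusted p of 0.00494 and 0.0113.

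Trem2, a lipid-sensing receptor that signals through the adaptor Tyrobp, read 0.73, 0.82, 0.98 and 0.85 on the fasted arrays and 1.09, 1.01, 1.1 and 1.07 on the fed arrays. Fasted replicate 3 came within a small step of the lowest fed array and the groups did not overlap. Trem2 was 1.16-fold lower (1.07 to 1.27; limma, adjusted p = 0.0329).

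Csf1r, the receptor for CSF1 and IL-34, read 3.39, 3.39, 3.54 and 3.46 on the fasted arrays and 3.60, 3.57, 3.71 and 3.59 on the fed arrays. The groups were separate, by less than the gap between slides within a group. The fall was the smallest of the 12, at 1.13-fold (1.04 to 1.22; limma, adjusted p = 0.0448). A second Csf1r probe also fell, by 0.17 (limma, adjusted p = 0.011), and the third did not pass at -0.08 (adjusted p = 0.501).

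The calls of P2ry12, Trem2 and Csf1r, and that of Cd53 given further on, could be ended by a single array. Leaving out fasted replicate 1, 2 or 3 or fed replicate 2, 3 or 4 in turn put P2ry12 at adjusted p = 0.0516 to 0.0913. Leaving out any array but fasted replicate 3 put Trem2 at 0.0511 to 0.0796 and Csf1r at 0.0656 to 0.109. Median scaling also ended these 3 calls, with adjusted p = 0.0574 for P2ry12, 0.0867 for Trem2 and 0.145 for Csf1r, as did normexp background and no filter on dim probes. The log2 differences of all 12 genes stayed below 0 within each slide.

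The other 6 homeostatic surface genes did not pass. Cx3cr1, the fractalkine receptor, read 1.68, 1.83, 2.01 and 1.93 on the fasted arrays and 2.05, 1.96, 2.0 and 2.0 on the fed arrays. The fasted arrays of the first slide were low and those of the second lay among or near the fed arrays, so that the difference was -0.25 on slide 1 and -0.04 on slide 2 (both together -0.14, limma, adjusted p = 0.191). P2ry13, another ADP receptor, differed by -0.11 (adjusted p = 0.272) and had the same split, -0.21 on slide 1 and -0.01 on slide 2; without fasted replicate 3 it passed, at -0.18 (adjusted p = 0.0312). Gpr34, a lysophosphatidylserine receptor, differed by -0.08 (adjusted p = 0.555), and P2ry6, the UDP receptor tied to phagocytosis, by -0.02 (adjusted p = 0.836). Cd33, a sialic acid-binding receptor, lay at 0.13 (adjusted p = 0.468), and Siglech, of the same family, at -0.20 (adjusted p = 0.496) on a probe taken up with the other probes of its gene.

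**Figure D2:**
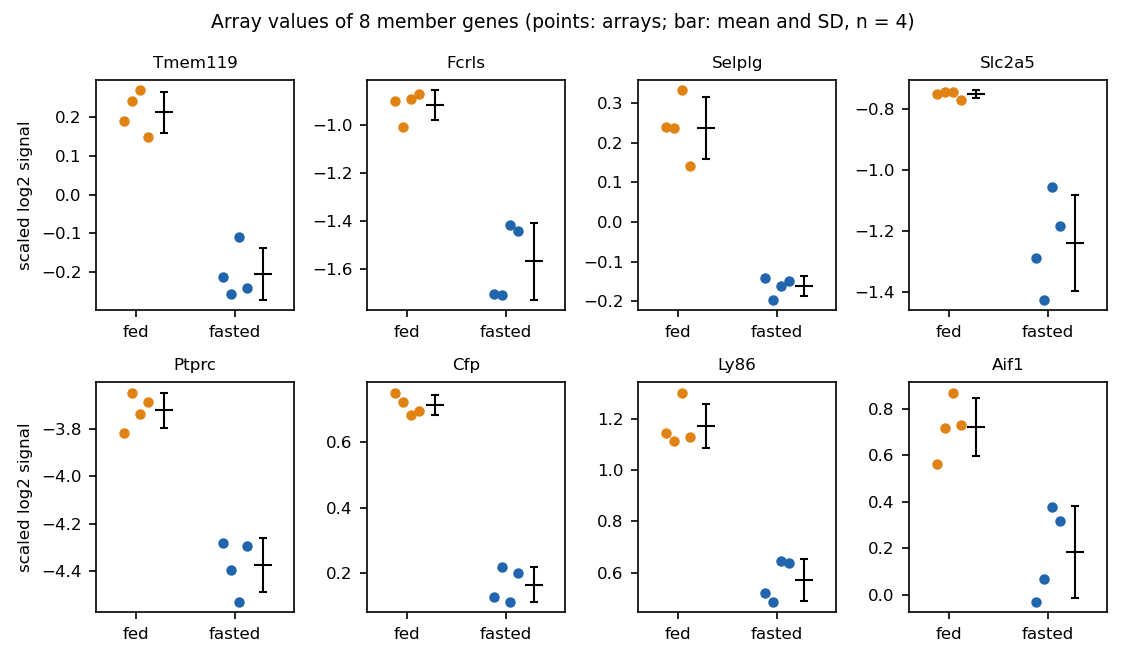
Scaled log2 signal of 8 members on every array, each panel on its own axis; points are arrays, and the bars give the mean and SD of 4 arrays. These are the 8 members that passed under all 21 alternatives outside the fits within 1 slide, and in each panel all fasted arrays lie below all fed arrays.

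The pan-leukocyte genes split. Ptprc encodes CD45, a phosphatase on all nucleated blood cells that microglia carry at a low level. It read -4.28, -4.39, -4.53 and -4.29 on the fasted arrays and -3.82, -3.65, -3.73 and -3.69 on the fed arrays. The groups were far apart on both slides, with a fold of 1.57 (1.42 to 1.74, limma, adjusted p = 0.00151). The fasted values lay near those of Cd53, which is given next and was near background, so the size is uncertain. Over the alternatives the difference ran from -0.70 to -0.39, and that of Fcrls from -0.75 to -0.55. Its probe lies at chr1:139961083-139961142 on the minus strand of mm9.

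Cd53 read -4.41, -4.38, -4.63 and -4.61 on the fasted arrays and -4.24, -4.04, -4.08 and -4.23 on the fed arrays, where the groups were separate though the probe was near background. It was 1.28-fold lower (1.13 to 1.45; limma, adjusted p = 0.0189). Without fed replicate 2 the adjusted p was 0.0507, and quantile scaling, normexp background and a trended variance also ended the call.

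Itgad moved the other way, and it entered the test only because the fasted arrays lay above background. It read -2.83, -3.36, -4.06 and -3.47 on the fasted arrays, and -6.20, -6.00, -5.49 and -5.64 on the fed arrays, where it was not well above background. Against the mean over fed arrays of the lowest signal that counted as above background (or its own, where higher), -4.67, Itgad with a fasted mean of -3.43 was at least 2.36-fold higher in fasted brain on the processed signal. The limma fit gave an adjusted p of 0.0019, which is no support of its own, since the probe could enter the test only by being high on the fasted arrays. The bound does not carry over to another background correction: with normexp background the fitted difference was 0.88, a fold of 1.84.

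Itgb2, the beta chain that pairs with the products of Itgam and Itgad, read -2.62, -2.64, -2.28 and -2.27 on the fasted arrays and -2.34, -2.20, -2.09 and -2.02 on the fed arrays. The second slide was higher in both groups, and the fasted arrays of slide 2 overlapped the fed arrays of slide 1. The difference was -0.29 (limma, adjusted p = 0.112); it passed when the slide was held as a block (adjusted p = 0.00937) and when the replicate number was (adjusted p = 0.0279). Itgam, which encodes CD11b, is given with its 3 probes further on.

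None of the 3 genes of the activating receptor complexes passed in limma, though 2 had an unadjusted p under 0.05. Fcer1g, the common gamma chain of Fc receptors, read 0.54, 0.55, 0.78 and 0.62 on the fasted arrays and 0.77, 0.80, 0.97 and 0.83 on the fed arrays. Fasted replicate 3 reached into the fed range, and the difference was -0.22 (limma, adjusted p = 0.0597). Fcer1g passed when the slide (adjusted p = 0.0244) or the replicate number (adjusted p = 0.0203) was held as a block, and without fasted replicate 3 (adjusted p = 0.0231). In all it passed under 8 of 23 alternatives, among them also quantile scaling, normexp background and a trended variance.

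Tyrobp encodes DAP12, the signalling partner of Trem2. It read 0.82, 0.86, 0.93 and 0.93 on the fasted arrays and 1.24, 1.21, 0.07 and 1.16 on the fed arrays. One fed array, replicate 3, lay far below all others, while the other fed arrays lay above every fasted array. The difference over all arrays was -0.04 (limma, adjusted p = 0.938), and without fed replicate 3 it was -0.32 (adjusted p = 0.00939). Fcgr3, a low-affinity Fc receptor, lay at 0.16 (adjusted p = 0.0633), and without fasted replicate 4 it passed at 0.20 (adjusted p = 0.0371).

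In the complement class the C1q genes stayed close together. Cfp encodes properdin, a plasma protein that stabilises the convertase of the alternative pathway. It read 0.13, 0.22, 0.11 and 0.20 on the fasted arrays and 0.75, 0.72, 0.68 and 0.70 on the fed arrays. The spread within each group was small beside the gap. Cfp was 1.46-fold lower (1.38 to 1.55; limma, adjusted p = 0.000705), the smallest adjusted p among the members, with -0.57 on slide 1 and -0.53 on slide 2. The probe lies at chrX:20502742-20502801 on the minus strand of mm9.

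C1qb, a C1q chain, read 0.02, 0.11, 0.13 and 0.11 on the fasted arrays and 0.13, 0.27, 0.30 and 0.16 on the fed arrays. The highest fasted and the lowest fed array almost coincided, and C1qb did not pass (difference -0.12, limma, adjusted p = 0.123). It was the only member with separate groups that did not pass; the groups of 13 measured members were apart with fasted lower and of 1 with fasted higher, against 12.9% and 14% of all genes tested. C1qa differed by -0.09 (adjusted p = 0.306) and C1qc by -0.03 (adjusted p = 0.72). The 95% interval of the fold reached 1.16 for C1qa, 1.18 for C1qb and 1.1 for C1qc. C3, the central complement component, differed by 0.01 (adjusted p = 0.932).

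The lysosomal members gave no call. Ctss, the protease cathepsin S, read 2.61, 2.65, 2.70 and 2.70 on the fasted arrays and 2.64, 2.65, 2.82 and 2.66 on the fed arrays. The groups overlapped throughout, with a difference of -0.03 (limma, adjusted p = 0.733). Cd68, a lysosomal membrane glycoprotein of macrophages, read 0.24, 0.27, 0.20 and 0.18 on the fasted arrays and 0.20, 0.11, 0.11 and 0.01 on the fed arrays. The fasted arrays were mostly the higher ones, and the difference of 0.12 did not pass (adjusted p = 0.132). Laptm5, a lysosomal transmembrane protein of blood cells, differed by -0.06 (adjusted p = 0.58).

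Set side by side by array, the 3 classes differed in where the fasted arrays lay. The median deviation of the 13 homeostatic surface genes from their own fed means was -0.34, -0.23, -0.08 and -0.16 on the fasted arrays and between -0.04 and 0.03 on the fed arrays. All fasted arrays were below all fed arrays, those of the first slide the most. For the 5 complement genes the fasted medians ran from -0.12 to 0.02 and the fed medians from -0.05 to 0.08. For the 3 lysosomal genes they ran from -0.08 to 0.01 and from -0.10 to 0.10. In both of these classes the fasted and fed ranges overlapped. The separation was not particular to the homeostatic class. The 5 integrin and pan-leukocyte genes had fasted medians of -0.26 to -0.11 and fed medians of -0.10 to 0.08. The 3 pattern recognition genes had -0.15 to -0.08 and -0.07 to 0.07.

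**Figure D3:**
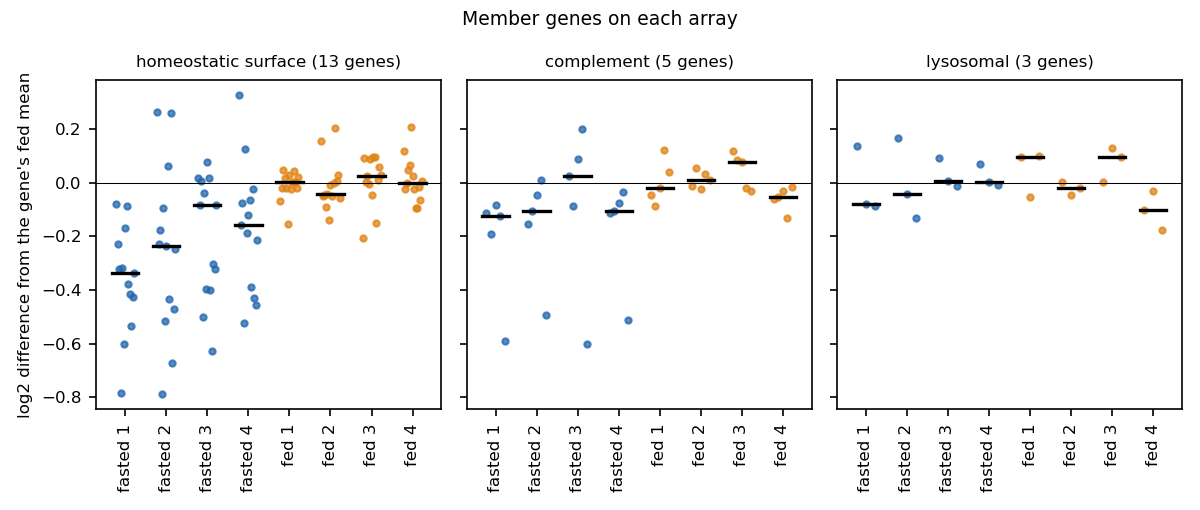
Deviation of each gene's scaled log2 signal from its own fed mean, by array, for the homeostatic surface, complement and lysosomal classes; points are genes and bars are the median over the genes. The homeostatic medians are lower on all fasted arrays (-0.34 to -0.08) than on the fed arrays, and the lowest complement point on each fasted array is Cfp.

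The remaining members held 2 further falls. Ly86 encodes MD-1, the partner of the Toll-like receptor homologue RP105. It read 0.52, 0.49, 0.65 and 0.64 on the fasted arrays and 1.15, 1.11, 1.30 and 1.13 on the fed arrays. The gap between the groups was wider than the spread within either, and the fold was 1.52 (1.38 to 1.66; limma, adjusted p = 0.00138). The probe lies at chr13:37510701-37510760 on the plus strand of mm9.

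Aif1 encodes IBA1, the actin-binding protein by which microglia are stained. It read -0.03, 0.07, 0.38 and 0.32 on the fasted arrays and 0.56, 0.72, 0.87 and 0.73 on the fed arrays. Both groups were higher on the second slide and the groups stayed apart. Aif1 was 1.45-fold lower (1.23 to 1.71; limma, adjusted p = 0.0132), and its probe lies at chr17:35307959-35308018 on the minus strand of mm9.

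Of the other pattern recognition genes, Cd14, the lipopolysaccharide co-receptor, differed by -0.11 (limma, adjusted p = 0.091), and Tlr2, a receptor for bacterial lipoproteins, by 0.06 (adjusted p = 0.571). Both transcription factors were near 0. Sall1, a zinc finger factor that holds microglial identity, differed by -0.05 (adjusted p = 0.816), and Irf8, which microglia need to develop, by -0.05 (adjusted p = 0.615). Mrc1, the mannose receptor of perivascular macrophages, differed by -0.13 (adjusted p = 0.156).

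For 8 members more than 1 probe was above background, and for 4 of them (Itgam, Siglech, Olfml3 and Csf1r) the probes gave different calls. The brightest probes of Itgam and Siglech carry a tandem repeat, and stretches of these 2 genes' probes are shown so that the repeat can be seen beside a probe that fell. Capitals below mark the repeat, and the other probe of each gene is shown in lower case. Each line is 30 bases of a 60-base probe as the array files give it.
Itgam brightest probe, bases 1 to 30: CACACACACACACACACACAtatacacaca
Itgam other probe, bases 1 to 30: aagttcacaatcctgtaccactcattgtgg
Siglech brightest probe, bases 31 to 60: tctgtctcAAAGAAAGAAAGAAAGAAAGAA
Siglech other probe, bases 1 to 30: acaacagttaaattcccttgcagagacatc
The letters CACACACACACACACACACA stand in 22 probes of the array and AAAGAAAGAAAGAAAGAAAG in 3.

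The repeat-bearing Itgam probe, at chr7:135261755-135261814 on the plus strand of mm9, read 4.78, 4.97, 4.60 and 4.82 on the fasted arrays and 4.89, 4.89, 4.77 and 4.65 on the fed arrays. Its groups overlapped throughout, and the difference was -0.01 (limma, adjusted p = 0.955). The Itgam probe at chr7:135260275-135260334 read -4.01, -3.91, -4.02 and -3.70 on the fasted arrays and -3.66, -3.44, -3.66 and -3.53 on the fed arrays. There the fasted arrays were the lower ones and the probe fell by 0.34 (adjusted p = 0.0307). The third Itgam probe did not pass, at -0.23 (adjusted p = 0.298).

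The Siglech probes differed in direction. The repeat-bearing probe, at chr7:63034088-63034147 on the plus strand of mm9, read 4.68, 5.35, 4.47 and 5.07 on the fasted arrays and 5.14, 5.30, 4.94 and 5.0 on the fed arrays, with a wide spread among fasted arrays and no call. The Siglech probe at chr7:63033826-63033885 read -0.43, -0.41, -0.38 and -0.29 on the fasted arrays and -0.15, -0.17, -0.10 and -0.10 on the fed arrays. Its groups were separate and it fell by 0.25 (limma, adjusted p = 0.00779). The third Siglech probe, the brighter of those without a repeat, lay at 0.32 and did not pass (adjusted p = 0.162).

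Olfml3, a secreted olfactomedin-like protein of microglia, had probes that disagreed without a repeat. Its brightest probe, at chr3:103540414-103540473 on the minus strand of mm9, read 1.72, 1.74, 1.45 and 1.87 on the fasted arrays and 1.49, 1.50, 1.59 and 1.67 on the fed arrays. The groups overlapped, and the difference was 0.13 (limma, adjusted p = 0.348). The other probe, at chr3:103539590-103539649, read -0.89, -1.04, -0.86 and -0.93 on the fasted arrays and -0.42, -0.45, -0.32 and -0.41 on the fed arrays. Its groups were far apart, and it fell by 0.53 (adjusted p = 0.00119).

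In the other 5 genes no further probe fell where the brightest had not passed. Both Cx3cr1 probes gave about the same difference, -0.14 and -0.13, and neither passed. C3 gave 0.01 and 0.34, and Laptm5 gave -0.06 and 0.05, with no call. Counted by probe, 17 of 48 member probes above background fell and 1, that of Itgad, was called higher, beside 8.55% and 8.4% of the 26066 probes tested. A second Cd68 probe was above background on 1 of 8 arrays and was not tested.

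**Figure D4:**
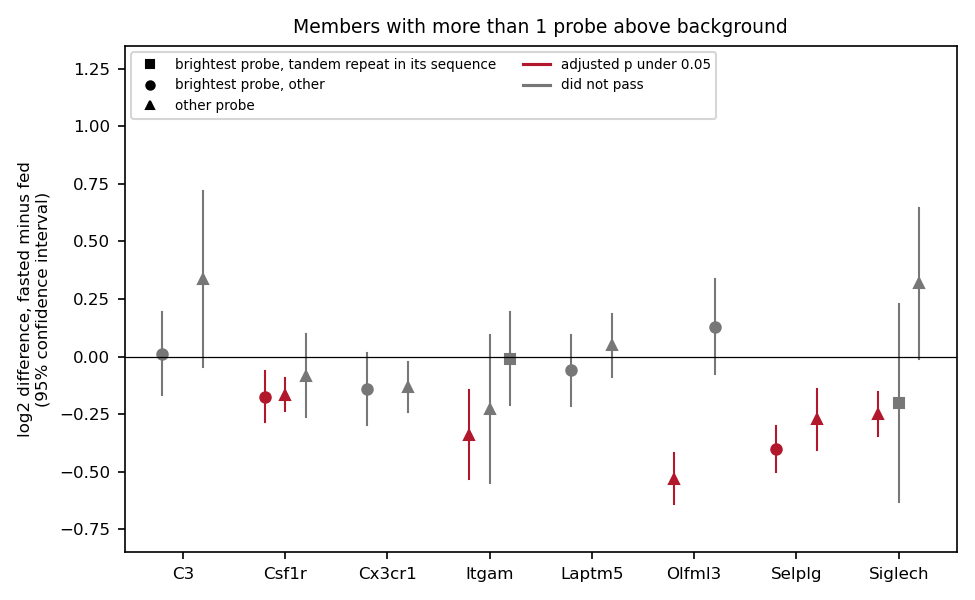
Log2 difference, fasted minus fed, of each probe of the 8 members with more than 1 probe above background, with 95% confidence intervals; squares and circles are the brightest probe of the gene, squares those with a tandem repeat, and triangles the other probes. Itgam, Siglech and Olfml3 each have a probe that fell beside a brightest probe that did not pass.

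PU.1, an ETS-family factor, is the main regulator of macrophage genes, and its sites hold the letters AGGAAGT. The start of a gene was therefore read for these letters on both strands, in windows from 250 bases before to 50 bases after the start, taken from RefSeq on GRCm38.p6. Entries matched 28 of the 38 members, with 33 windows. The letters stood in 11 of the 33 windows (33.3%), of 10 genes, and in 9.35% of all 32851 windows. The following stretches of 80 bases are shown because they put 3 genes that fell, P2ry12, Fcrls and Ptprc, beside 2 C1q genes that did not pass. Capitals mark the letters, as AGGAAGT or, where the match is on the opposite strand, as ACTTCCT, and each stretch ends before the start of the gene, which lies on the minus strand.
P2ry12, chr3:59262994-59263073: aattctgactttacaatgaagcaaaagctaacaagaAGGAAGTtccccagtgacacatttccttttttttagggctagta
Fcrls, chr3:87263556-87263635: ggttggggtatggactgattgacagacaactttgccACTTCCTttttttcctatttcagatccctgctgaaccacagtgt
Ptprc, chr1:138175375-138175454: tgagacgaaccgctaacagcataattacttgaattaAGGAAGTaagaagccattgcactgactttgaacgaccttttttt
C1qb, chr4:136886210-136886289: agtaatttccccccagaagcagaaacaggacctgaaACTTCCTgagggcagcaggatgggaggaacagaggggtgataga
C1qc, chr4:136893066-136893145: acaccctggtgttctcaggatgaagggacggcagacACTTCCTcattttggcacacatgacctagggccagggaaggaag

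The letters began 52 bases before the start in P2ry12, 75 in Fcrls, 113 in Ptprc, 53 in C1qb and 195 in C1qc. Ptprc held a second match, on the opposite strand, 58 bases before the same start, and 237 bases before another listed start of Ptprc. The letters were found in 4 of 9 matched members that fell and in 6 of 19 other matched members. Lyz2, which was below background and not tested, is among the 6. Tmem119, Selplg and Csf1r also fell but had no matched entry. The longer form GAGGAAGT, which contains the first, stood in 9.09% of the member windows and 3.2% of all windows. A match is a description of the letters and not of a bound site.

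Other genes of microglia went both ways. Of 38 measured genes of a further microglial list, 4 fell (10.5%) and 5 rose, beside 8.96% and 9.46% of all genes tested. The median difference was 0.00. Unc93b1, which carries nucleotide-sensing Toll-like receptors to the endosome, read -1.25, -1.18, -1.15 and -1.18 on the fasted arrays and -0.74, -0.74, -0.78 and -0.80 on the fed arrays. Its groups were far apart, at -0.42 (limma, adjusted p = 0.0009). Pld4, an endolysosomal exonuclease, fell by 0.40 (adjusted p = 0.00855), and Rac2 and Hpgds were the others that fell. Havcr2, which encodes TIM-3, rose by 0.44 (adjusted p = 0.00215), and Mertk, Rnase4, Inpp5d and Adgrg1 were the others that rose. In bulk tissue the genes of this list can also be read from other cells, and the part of those cells was not tested. Spi1, which encodes PU.1, differed by -0.45 and did not pass (adjusted p = 0.0655); it was above background on 2 fasted and 4 fed arrays.

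Of the 13 measured ligands of microglial receptors, 1 fell (7.69%, beside 8.96% of all genes tested) and none rose in limma. An unadjusted p under 0.05 was found for 2. Cx3cl1, or fractalkine, the ligand of Cx3cr1, read 5.15, 5.15, 5.19 and 5.11 on the fasted arrays and 5.33, 5.23, 5.34 and 5.28 on the fed arrays. All fasted arrays were lower and it fell by 0.15 (limma, adjusted p = 0.0292). Of the ligands of Csf1r, Il34 differed by -0.19 (adjusted p = 0.0694) and Csf1 by 0.07 (adjusted p = 0.199).

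The wider complement and lysosomal lists went in both directions, and the shares that fell were close to that of all genes tested. Of 12 further complement genes measured, 1 fell (8.33%) and 2 rose, beside 8.96% and 9.46% of all genes tested. Masp2, a lectin pathway protease, fell by 0.51 (limma, adjusted p = 0.00357), while C2, the classical pathway protease, rose by 0.49 (adjusted p = 0.00615) and C1ra, a C1 protease, by 0.20 (adjusted p = 0.0498). Of 22 further lysosomal genes, 2 fell (9.09%) and 3 rose, with a median of 0.01. Hexa, a hexosaminidase subunit, fell by 0.26 (adjusted p = 0.0019), Ctsl, cathepsin L, rose by 0.18 (adjusted p = 0.0151), and Ctsa, cathepsin A, rose by 0.26 (adjusted p = 0.0182). Ctsh, which fell, and Gusb, which rose, were the others.

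Genes that reactive microglia switch on were in part below background and otherwise went both ways. Of 29 such genes 19 were measured, 2 were called higher and 4 fell (21.1%), beside 9.46% and 8.96% of all genes tested. The median was -0.05. Il1b, Tnf, Il6, Il1a, Ccl3, Ccl4 and Cst7 were above background on 0 arrays. Spp1, or osteopontin, rose by 0.56 (limma, adjusted p = 0.0142). Ch25h, which makes an oxysterol, was the other gene called higher, at 0.79, but it was above background on 4 fasted and 1 fed arrays and entered the test through the fasted ones. Fabp5, a fatty acid-binding protein that other brain cells also make, fell by 0.19 (adjusted p = 0.0116), as did Cd9, H2-Ab1 and H2-Eb1.

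Markers of perivascular and meningeal macrophages were in part lower. Of 12 measured, 5 fell (41.7%), beside 8.96% of all genes tested, and 7 did not pass, and the median was -0.35. Pf4, platelet factor 4, read -1.75, -2.03, -1.74 and -1.59 on the fasted arrays and -1.08, -1.27, -1.19 and -1.15 on the fed arrays. The groups were separate on both slides, and Pf4 fell by 0.61 (limma, adjusted p = 0.00539). Stab1, a scavenger receptor, fell by 0.22 (adjusted p = 0.00393), and Siglec1, which was above background on 2 fasted and 4 fed arrays and had enough fed arrays to enter the test through them alone, was called lower at -0.68. Folr2 and Cd209f also fell, and Folr2 lay near background on the fasted arrays, with a mean of -4.40. Of those that did not pass, F13a1 lay at 0.14, Dab2 at 0.10 and Clec4n at 0.22, and Cbr2, Ccl8, Lyve1 and Ccl24 between -0.46 and -0.09. Cd163 was above background on 0 arrays. The summed level of the list, as the log2 of the summed scaled signals, was 0.95 to 1.07 on the fasted arrays and 1.17 to 1.40 on the fed arrays. The part of these cells in the falls of Aif1, Ptprc, Cd53 and Cfp, which brain macrophages share with microglia, was not tested.

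Markers of blood leukocytes were partly at background and partly above it. Ccr2 and Ngp of monocytes and neutrophils, and Cd3d, Cd3g, Ms4a1 and Klrb1c of lymphocytes, were above background on 0 arrays. On all 8 arrays S100a8, S100a9, Camp and Elane of neutrophils, and Cd3e, Lck, Cd4 and Cd79a of lymphocytes, were above background, and none of these passed; S100a8 lay at 0.69 (limma, adjusted p = 0.35) and S100a9 at 0.62 (adjusted p = 0.401). Of 10 measured genes of monocytes and neutrophils 1 passed, where Fn1, fibronectin, which vessel cells also make, rose by 0.41 (limma, adjusted p = 0.00357). Of 7 measured lymphocyte genes Nkg7 fell, by 0.15 (adjusted p = 0.043). Of all genes tested 8.96% fell and 9.46% rose. None of 6 measured genes of red blood cells passed in limma or had an unadjusted p under 0.05, and their summed level was 6.63 to 7.25 on the fasted arrays and 6.63 to 7.28 on the fed arrays.

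Other brain cells gave mixed counts, beside 8.96% of all genes tested that fell and 9.46% that rose. None of 12 neuronal genes passed in limma (1 had an unadjusted p under 0.05), with a median of 0.07. Among 10 astrocyte genes 3 rose and 1 fell (10%), with a median of 0.12. Among 10 oligodendrocyte genes 1 rose and 4 fell (40%), with a median of -0.12. Among 10 endothelial and pericyte genes 1 rose and 3 fell (30%), with a median of -0.16. Of 4 genes of oligodendrocyte precursors 1 rose, and of 8 of ependyma and choroid plexus 1 rose and 2 fell (25%). The share of the measured members that fell was 32.4%. The summed level of the astrocyte list was 5.71 to 5.78 on the fasted arrays and 5.42 to 5.52 on the fed arrays, and that of the oligodendrocyte list 7.06 to 7.21 and 7.13 to 7.28. The part of a shift in cell shares in the members' differences was not tested.

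**Figure D5:**
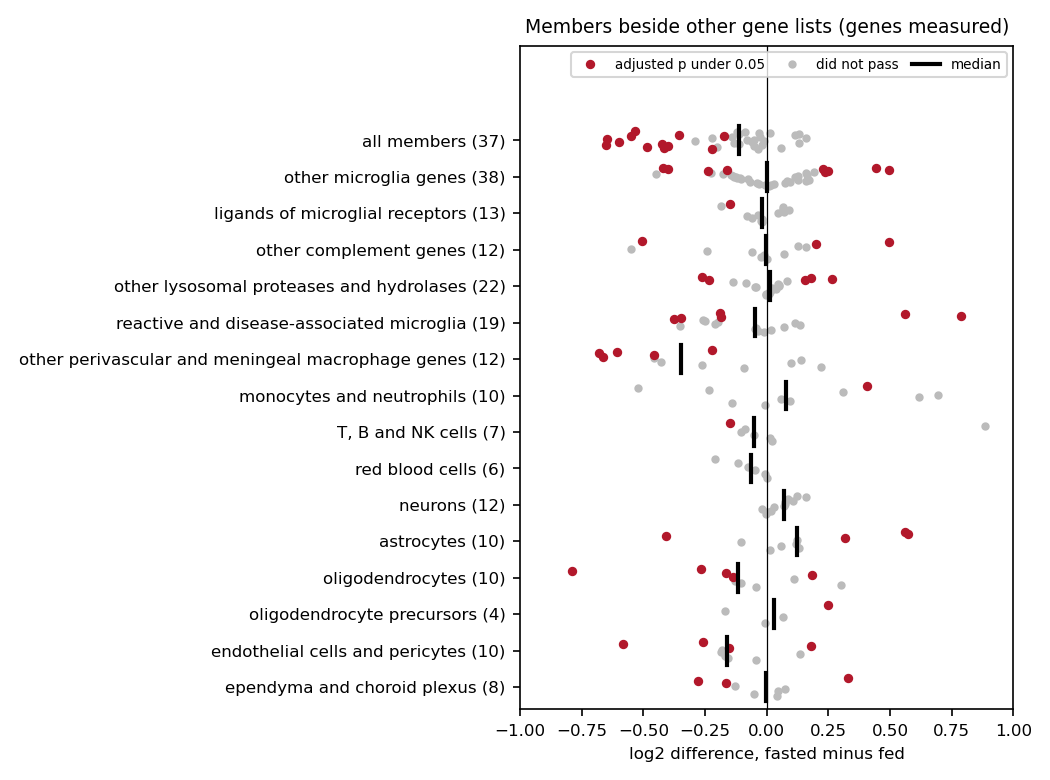
Log2 difference, fasted minus fed, of the measured genes of the members and of 15 further lists; points are genes, red where they passed, and the black bar is the median of the list. The members (median -0.11) and the perivascular and meningeal list (median -0.35) lie to the left of 0, as do the endothelial list (-0.16) and the oligodendrocyte list (-0.12), while the further microglial list is centred at 0.00; Itgad lies beyond the axis.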

How the data were processed

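Groups and replicate numbers were taken from the sample titles. The members and all other gene lists were chosen with earlier results of these data known, so lists are described by counts and medians and carry no test. The deposited scanner files give the brightness of each spot as an intensity. Per the file headers they were made with Feature Extraction 11.0.1.1, while version 10.10.1.1 stands in the submitters' processing notes. The deposited series table gives a linear ratio per spot, used only as an alternative. Compared with the scanner files, a value is typically the scaled signal over 1 fixed number for the spot. The SD over arrays of their log2 difference had a median of 0.000179 over spots. Column medians were 0.970 to 1.02. What the fixed number stands for is unknown.

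Control spots and outlier-flagged spots (128 to 217 per array) were left out, log2 processed signals were scaled to the array's 75th percentile and spots of a probe were averaged. An array counted for a probe if the share of its spots flagged well above background was 0.5 or more, and 26066 of 39429 probes that were above background on at least 4 of 8 arrays were kept. The comparison of the groups used lmFit and eBayes of limma 3.58.1 (R 4.3.3, two-sided), with Benjamini-Hochberg adjustment over these probes. The brightest kept probe by mean signal stood for a gene. The limma fit was tested on simulated data in which the arrays were independent.

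Accessions of 27427 probes matched the RefSeq table, which was used for names only. Probe coordinates are in mm9, per the file headers; which exon or untranslated region a probe covers was not analysed here.

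Members that passed, or whose groups do not overlap, were named with all array values, and the others with their difference. Up to 3 genes of every other list, those with the smallest p, were named; other genes of those lists (such as Folr2, F13a1, S100a8, Mertk, Spi1, Csf1 and Il34), and members given with array values though they did not pass, were chosen after their values were seen.

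Same-numbered fasted and fed arrays deviated together from their group means in all 4 pairs (correlation 0.18 to 0.29), and they share a slide and neighbouring positions; the labels do not say what the numbers stand for. Because of that shared place, the check cannot tell whether the numbers pair the samples or only their places on the slides. The fit with the replicate block is given beside the members whose call it changes. Calls in the other lists come from the fit without a block. The alternatives covered scaling, background, filter, probe choice, blocks, single slides and each array left out.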

Additional observations from a re-analysis of the deposited data

Results flagged for a closer look

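In 96 groups of 4 arrays (each member probe above background, fasted and fed), the highest or lowest array was tested for a gap to its neighbour that exceeds Dixon's 95% critical share of the group's range. Chance gives about 1 such group in 20, and 5 were found. In 4 of them the array was fed replicate 3. Tyrobp read 0.0726 there, beside a mean of 1.20 on the other fed arrays. C1qc read 1.34 (others 1.24), Ctss 2.82 (others 2.65) and Ly86 1.30 (others 1.13), so that this array was low for Tyrobp and high for the other 3 genes. A Siglech probe that did not pass read 2.07 on fasted replicate 3, where the other 3 fasted arrays averaged 2.52.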

How the results depend on the processing

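Across 23 alternatives, 1 of them chosen after seeing the data (leaving out probes with a tandem repeat of at least 16 bases), 12 members fell in the reported analysis and 8 to 14 did outside single slides. Within slide 1 and within slide 2 no member fell or rose, and 0 of 15995 genes passed in limma; at an unadjusted p under 0.05, 18 and 11 members were lower. The homeostatic count of 7 was 4 with median scaling, with normexp background and with no filter on dim probes, and 0 within either slide. The member called higher, Itgad, was not tested with a filter on all arrays, which leaves a count of 0. The median over all members was -0.19 within slide 1. With the mean over kept probes, Olfml3 turned to -0.20 (adjusted p = 0.0253).

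Leaving out 1 array at a time gave 8 to 13 members that fell, 1 to 2 called higher and 4 to 7 homeostatic genes that fell. The count of members that fell was lowest, at 8, without fed replicate 2; the homeostatic count was 4 without fasted replicate 1 or 2 or fed replicate 2, 3 or 4. The median differences ran from -0.13 to -0.09 (all members), -0.22 to -0.16 (homeostatic), -0.13 to -0.05 (complement) and -0.04 to 0.01 (lysosomal).

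With the replicate block 14 members fell, Itgb2 and Fcer1g being added, and 12 of the 14 were those of the reported analysis. It changed no other call of a member. The adjusted p in limma was higher with this block for some members, such as Cfp (0.0112, against 0.000705), Tmem119 (0.0122, against 0.00185) and Fcrls (0.0122, against 0.00269). For others it was lower, such as P2ry12 (0.0113, against 0.0377). In 7 of 8 arrays the best-correlated array of the other group was the one of the same number. Median scaling moved the split of all calls from 51.4% to 58.8% higher. Aif1, Cfp, Fcrls, Ly86, Ptprc, Selplg, Slc2a5 and Tmem119 passed under all 21 alternatives outside single slides, against 16 of 20 for Cd53, 12 for P2ry12, and 11 each for Csf1r and Trem2. Probes near background (such as Cd53, Itgad, Siglec1, and Ptprc and Folr2 on the fasted arrays) have the least certain sizes.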
